A study of Homo sapiens with 15 samples.

Results

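NCI-H1975 cells given EGF were compared with NCI-H1975 cells given siNC, a negative-control siRNA, in 6 of the 15 libraries of the series. NCI-H1975 is an established human line from a non-small cell lung carcinoma. All groups were made from this line, with 3 libraries each labelled control, almonertinib, EGF, siNC and siEGFR. The 6 libraries were chosen by their treatment labels and by no measured value. The control libraries and the siEGFR libraries, which carry an siRNA against EGFR, are given beside them to show where a level lies in other cultures. The labels give no dose, time, medium, cell density or transfection reagent, and they do not say that the replicates are separate cultures, so the p-values rest on a spread between libraries that may be only technical. Ligand and siRNA differ between the groups at the same time. Their parts in a difference therefore cannot be told apart from these 6 libraries.

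EGF is the secreted ligand of the receptor EGFR. Bound receptor activates the RAS, ERK and PI3K pathways, which induce a short wave of early transcription factors, then feedback inhibitors, and later genes for growth and division. A negative-control siRNA is a short duplex RNA chosen to match no transcript, and it is carried into cells with a transfection reagent. Cultures that received it serve as the reference for a knockdown and are not the same as untreated cultures. Lipid synthesis in epithelial cells is under the SREBP transcription factors, which are released when membrane sterol is low.

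Expression is given as FPKM, a count of fragments divided by gene length and by library size, in the values that the authors deposited. Read totals recovered from the steps in these values were 24568879, 23663624 and 31379222 in EGF 1 to 3 and 19844536, 19979929 and 34908302 in siNC 1 to 3. Differences are EGF minus siNC on log2(FPKM + 1), ± SE, from limma on these 6 libraries, with Benjamini-Hochberg adjusted p over 13361 tested loci. Levels are means ± SD (n = 3). The added 1 shrinks the difference of genes at a few FPKM or below. The siNC libraries lay closer together than the EGF libraries, with a median SD per gene of 0.0571 against 0.105 log2 units, and EGF 2 was farther from EGF 1 and EGF 3 than these were from each other. The line carried epithelial transcripts, with KRT8 and KRT18, keratins of simple epithelia, at 253 and 167 FPKM with EGF and 228 and 195 FPKM with siNC. Of 8 leukocyte markers MS4A1 was at 0 in all 6 libraries, and PTPRC, the pan-leukocyte marker, was at no more than 0.0577 FPKM in any of them. Of 6 endothelial markers VWF was at no more than 0.0706 FPKM, and of 7 fibroblast markers DCN was at 0 in 5 of the 6 libraries. PECAM1 of the endothelial list reached the filter through the EGF libraries alone and was higher with EGF (0.75). That list summed to 1.88 to 2.25 FPKM with EGF and 0.794 to 1.08 FPKM with siNC. CD79A of the leukocyte list reached the filter through the siNC libraries alone and was lower (-1.42). The leukocyte list summed to 36.3 to 39.4 FPKM with EGF and 10.1 to 10.3 with siNC, most of it from CD14, and its part in other results was not tested. The fibroblast list summed to 193 to 214 and 138 to 146 FPKM, most of it from COL1A2. In RNA from whole cultures, fewer cells of a kind and less RNA per cell cannot be told apart.

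The groups differed widely. With EGF 3079 loci were higher than with siNC and 4608 were lower, which is 23.0% and 34.5% of those tested. Of these, 300 loci (2.25%) were higher and 427 (3.2%) lower by at least 2-fold, and the 3 EGF and 3 siNC libraries of 65.9% of tested loci did not overlap. Counts of list members below are to be read against these shares. The median difference over all tested loci was -0.08, and under median-ratio scaling, where it was 0.00, higher loci made up 50.9% of the calls in place of 40.1%. The control mean lay nearer EGF than siNC for 196 (65.3%) of the 300 loci higher by at least 2-fold, for 373 (87.4%) of the 427 lower ones, and for 9182 of all 13361. The 12 largest differences in each direction, among named genes that reached 5 FPKM on average in 1 of the groups and whose EGF and siNC libraries did not overlap, are therefore given with their control levels.

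**Figure D1:**
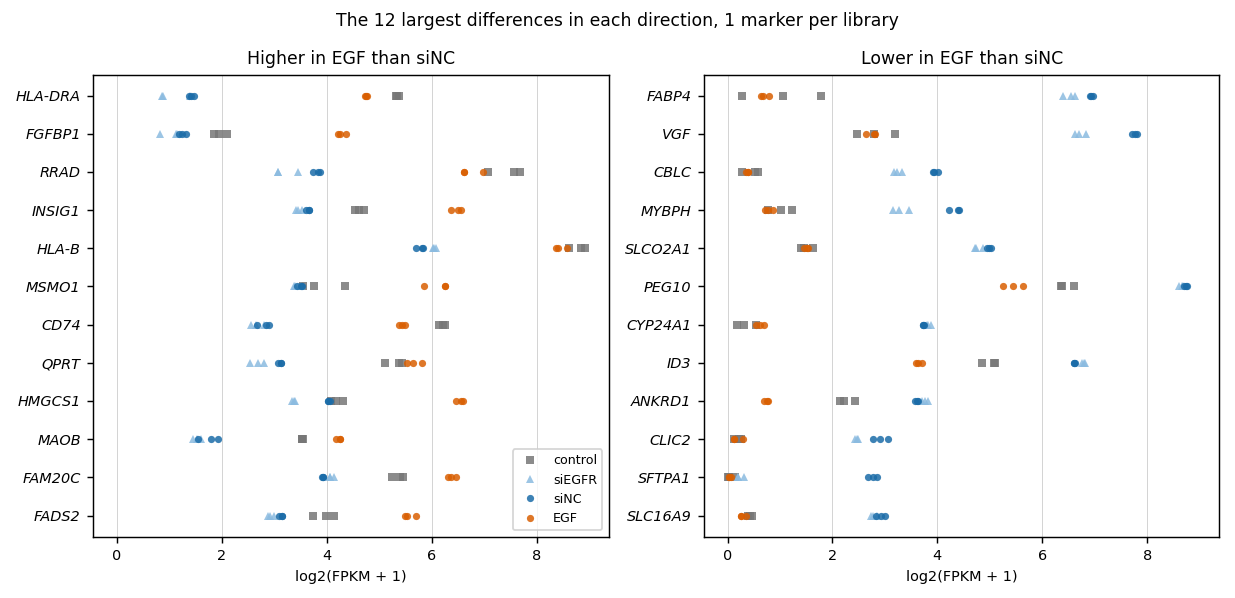
Levels of the 12 genes with the largest differences in each direction, as log2(FPKM + 1), with 1 marker per library for control, siEGFR, siNC and EGF. For HMGCS1, INSIG1 and MSMO1 the control markers lie near siNC, while for FABP4, VGF and the other lower genes the control markers lie with EGF or between the groups and the siEGFR markers lie toward siNC, except for SFTPA1.

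FABP4 (ENSG00000170323), a carrier of fatty acids known from fat cells, showed the largest difference of all tested loci. It was at 0.565, 0.741 and 0.605 FPKM in EGF 1, 2 and 3 and at 119, 125 and 121 FPKM in siNC 1, 2 and 3. Every EGF library thus lay far below every siNC library, a difference of -6.23 ± 0.06 (adjusted p = 1.55e-08). FABP4 reached the filter through the siNC libraries alone, so that it had to differ and its direction was fixed. The control libraries were at 0.208, 2.42 and 1.10 FPKM and the siEGFR libraries at 82.8, 97.9 and 92.98 FPKM, so the high level was found in both siRNA groups. VGF (ENSG00000128564), a secreted peptide precursor of neurons and endocrine cells whose name refers to its induction by nerve growth factor, followed with 5.19, 5.98 and 5.95 FPKM with EGF and 223, 216 and 207 FPKM with siNC (-5.01 ± 0.06, adjusted p = 8.42e-08). Here control was at 4.51, 8.14 and 5.88 FPKM, next to EGF, and siEGFR at 114, 103 and 97.4 FPKM, between them.

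The other 10 of the largest decreases ranged from nearly absent with EGF to abundant in both groups. CBLC, a ubiquitin ligase of the CBL family that acts on activated receptor kinases, was at 0.278, 0.314 and 0.316 FPKM with EGF and 14.1, 15.1 and 14.4 FPKM with siNC. SLCO2A1, a prostaglandin transporter, was at 1.83 against 30.7 FPKM, and CYP24A1, which inactivates vitamin D, at 0.534 against 12.3 FPKM. MYBPH, a myosin-binding protein, SLC16A9, a carrier of the monocarboxylate family, and CLIC2, a chloride channel family protein, were at 0.721, 0.227 and 0.133 FPKM with EGF. With siNC these 3 genes were at 19.3, 6.56 and 6.55 FPKM. PEG10, an imprinted gene derived from a retrotransposon, was abundant in all groups and differed in degree, at 48.7, 37.2 and 42.5 FPKM with EGF, 424, 416 and 433 FPKM with siNC and 96.3, 82.3 and 81.2 FPKM in control. ID3, ANKRD1 and SFTPA1 are described with their lists. CBLC, SLC16A9, CLIC2, ANKRD1 and SFTPA1 reached the filter through the siNC libraries alone, so that they had to differ and their direction was fixed. CYP24A1 and MYBPH also averaged below 1 FPKM with EGF.

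Among the 12 largest increases, 4 genes belong to sterol and fatty acid metabolism and 3 to antigen presentation. Of the others, FGFBP1, a secreted carrier that mobilises matrix-bound fibroblast growth factors, was at 17.5, 19.7 and 18.02 FPKM with EGF, 1.49, 1.37 and 1.27 FPKM with siNC and 2.60, 2.84 and 3.29 FPKM in control, so that EGF stood above both. RRAD, a small GTPase that inhibits calcium channels, was at 97.8, 124 and 97.2 FPKM with EGF and 13.7, 13.2 and 12.4 FPKM with siNC (2.92 ± 0.10), and at 176 FPKM in control. QPRT, an enzyme of NAD synthesis, was at 49.9 against 7.63 FPKM, and MAOB, a monoamine oxidase, at 17.7 against 2.39 FPKM. FAM20C, the kinase of secreted proteins, was at 82.3 against 14.1 FPKM, with control between them at 40.3 FPKM.

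Genes of cell division were higher than control in both groups, and lower with EGF than with siNC. All 35 members of the G1/S and DNA replication list passed as lower with EGF, with a median difference of -0.78 against -0.08 over all tested loci. Against control, in a fit of all 15 libraries, 34 of these 35 genes were higher with EGF (24.7% of all tested loci) and 35 with siNC (37.9% of all tested loci), with median differences of 0.97 and 1.82. The comparisons share libraries with each other. RRM2 (ENSG00000171848), the regulated subunit of ribonucleotide reductase, had the largest difference, with 9.60, 8.55 and 9.36 FPKM with EGF, 24.3, 23.6 and 24.8 FPKM with siNC and 1.82, 1.86 and 1.90 FPKM in control (-1.31 ± 0.06, adjusted p = 4.44e-06). Its 3 groups did not overlap, and EGF lay between the other two.

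The replication licensing factor CDT1 was at 6.87 ± 0.954 FPKM with EGF and 16.7 ± 0.539 FPKM with siNC (-1.17 ± 0.09), and the primase subunit PRIM1 at 1.54 ± 0.150 and 4.68 ± 0.408 FPKM (-1.16 ± 0.08). MCM10, an initiation factor, and POLE2, a subunit of DNA polymerase epsilon, differed by -1.12 and -1.08. The ring subunits of the MCM helicase differed less, from -1.03 for MCM2 to -0.51 for MCM4. The smallest difference of the list was that of RRM1, the catalytic subunit of ribonucleotide reductase, at -0.17 (adjusted p = 0.0288). RRM1 did not pass under 6 of 15 alternatives (adjusted p up to 0.289), among them those without siNC 1, siNC 2 or siNC 3. Nor did it pass under median-ratio scaling, where its difference was -0.07. UNG, a uracil glycosylase of DNA repair, was at 11.4, 10.3 and 10.4 FPKM with EGF, close to control at 10.7, 8.66 and 10.6 FPKM, and at 22.7, 23.5 and 24.5 FPKM with siNC. It was the member that did not pass as higher with EGF against control. 2 of the 35 genes reached the filter through the siNC libraries alone.

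Of 32 tested mitotic genes 31 were lower with EGF and KIF20A did not pass (-0.05 ± 0.04, adjusted p = 0.321). The median was -0.62, and against control the medians were 1.34 for EGF and 1.99 for siNC, with 32 genes higher in each. CDK1, the mitotic kinase, was at 9.97, 6.93 and 9.95 FPKM with EGF, 19.5, 17.5 and 21.2 FPKM with siNC and 3.68, 1.70 and 2.08 FPKM in control (-1.05 ± 0.14). BUB1, a spindle checkpoint kinase, TOP2A, which untangles chromosomes, and MKI67, the Ki-67 antigen, differed by -1.08, -0.93 and -0.91. CCNB1, which encodes cyclin B1, was at 109 ± 3.61 and 125 ± 1.93 FPKM and differed by only -0.20 (adjusted p = 0.0116). It did not pass without siNC 3 (adjusted p of 0.0620) or under median-ratio scaling (-0.09). For none of the 35 G1/S and 32 mitotic genes did the EGF and siNC libraries overlap, which held for 65.9% of all tested loci.

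**Figure D2:**
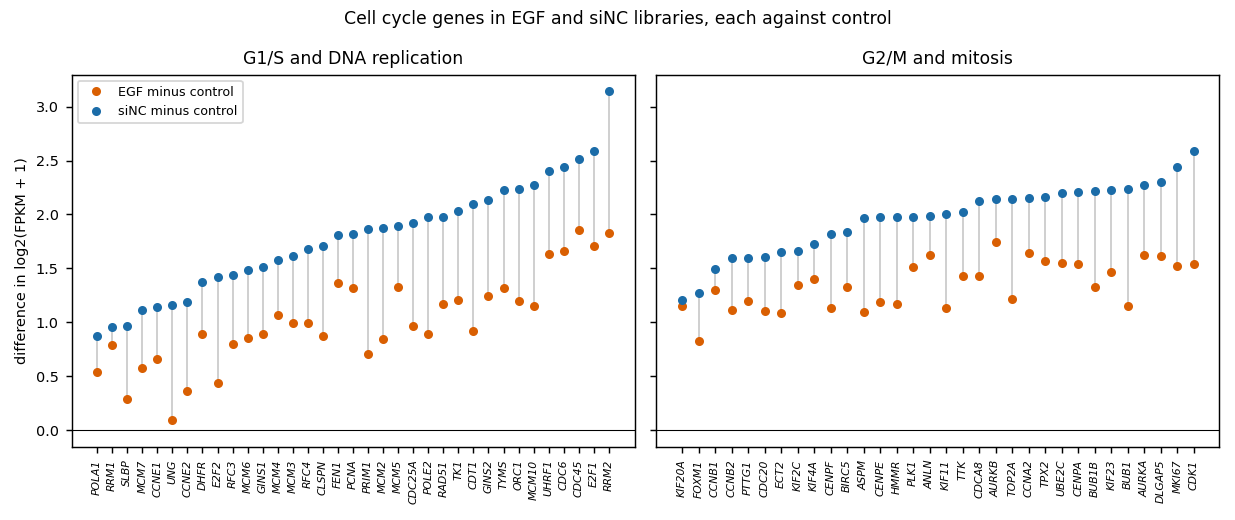
Difference from control in log2(FPKM + 1) for each tested gene of the G1/S and mitosis lists, with EGF minus control and siNC minus control joined by a line. All points lie above 0 and the siNC point lies above the EGF point for every gene, with the closest pair at KIF20A.

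The regulators of the restriction point did not follow a single direction. Of 12 tested D-type cyclins, partner kinases and inhibitors 5 were higher and 4 lower with EGF. The inhibitor CDKN2B, which blocks CDK4 and CDK6, was at 19.4, 17.5 and 18.03 FPKM with EGF and 5.83, 6.33 and 5.88 FPKM with siNC (1.46 ± 0.06), and CDKN1C was at 9.06 against 3.57 FPKM (1.13). CDKN2D and CDKN1A were higher by 0.77 and 0.34. The inhibitor CDKN2C was lower, at -0.68, as were the kinases CDK4 (-0.51) and CDK6 (-0.31). CCND1, which encodes cyclin D1 and is an ERK output gene, was at 66.00 ± 3.66 FPKM with EGF and 75.4 ± 0.800 FPKM with siNC (-0.19 ± 0.05, adjusted p = 0.0197), both above control at 18.5 ± 1.71 FPKM. The difference did not pass under 6 of 15 alternatives (adjusted p up to 0.222), among them those without EGF 3, siNC 1, siNC 2 or siNC 3. The difference was -0.09 under median-ratio scaling. CDK6 did not pass under 2 of 14 alternatives (adjusted p up to 0.0717), among them that without siNC 3.

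Promoter stretches of genes from 3 lists are printed to show where the letters of a motif chosen for each list lie. They come from RefSeq windows on GRCh38.p14, of 250 bases before and 50 after each start, of which 35116 were searched on both strands. The files were made on hg19, so no coordinate of the files is used. The E2F core was taken as TTTGGCG (the spelling in CDC6), and also with CC (giving TTTCCCG) or CG (giving TTTCGCG) in the middle. It occurred in windows of 21 of the 30 G1/S genes that had a window (23 of their 40 windows), and in 7.21% of all windows. CCAAT, the NF-Y box, occurred in windows of 13 of 15 cholesterol synthesis genes (15 of their 20 windows) and in 34.6% of all windows. The CArG box of serum response factor occurred for 2 of 14 immediate early genes, EGR1 and SRF (2 of 17 windows), and in 1.29% of all windows. Genes can have several windows, and HMGCS1 has a second start site whose stretch of the same length (chr5:43313182-43313331, not printed) holds 0 matches. A match is a run of letters, not a site of binding. The 150 bases before the start are shown 5′ to 3′ on the gene's strand, with matches in capitals (CCAAT or its complement for HMGCS1 and MSMO1, the E2F core or its complement for CDC6 and MCM6, the CArG box for EGR1).
HMGCS1, chr5:43313413-43313562, minus strand: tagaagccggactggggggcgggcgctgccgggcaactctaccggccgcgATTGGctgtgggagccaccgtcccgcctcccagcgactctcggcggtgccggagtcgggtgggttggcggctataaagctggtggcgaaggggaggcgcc
MSMO1, chr4:165327519-165327668, plus strand: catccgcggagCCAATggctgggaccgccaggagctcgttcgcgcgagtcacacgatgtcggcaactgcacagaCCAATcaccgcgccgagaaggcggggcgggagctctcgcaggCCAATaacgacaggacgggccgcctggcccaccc
CDC6, chr17:40287729-40287878, plus strand: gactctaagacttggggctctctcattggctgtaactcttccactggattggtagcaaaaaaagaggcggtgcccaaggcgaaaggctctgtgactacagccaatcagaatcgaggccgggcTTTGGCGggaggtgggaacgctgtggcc
MCM6, chr2:135876444-135876593, minus strand: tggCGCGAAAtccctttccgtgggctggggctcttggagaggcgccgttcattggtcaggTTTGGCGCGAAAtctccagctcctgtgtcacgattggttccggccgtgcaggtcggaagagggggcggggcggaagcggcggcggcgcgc
EGR1, chr5:138465329-138465478, plus strand: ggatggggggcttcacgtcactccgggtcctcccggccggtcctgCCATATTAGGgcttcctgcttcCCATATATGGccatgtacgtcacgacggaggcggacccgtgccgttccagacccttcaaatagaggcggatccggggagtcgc

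Cholesterol synthesis was higher with EGF along its whole length. All 20 enzymes were higher with EGF than with siNC, where 23.0% of all tested loci were, and the median difference was 1.55. HMGCS1 (ENSG00000112972), which makes HMG-CoA at the head of the pathway and whose printed promoter stretch holds 1 CCAAT box in reverse, was at 93.4, 86.8 and 95.7 FPKM with EGF and 15.6, 15.3 and 15.3 FPKM with siNC (2.50 ± 0.05, adjusted p = 4.83e-07). Control, at 18.9, 17.1 and 15.9 FPKM, lay just above siNC, so the high level was found only in the EGF libraries among these 3 groups. For 18 of the 20 enzymes the control mean lay nearer siNC than EGF.

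MSMO1, which removes methyl groups from lanosterol, was at 75.8, 57.1 and 75.6 FPKM with EGF and 10.4, 9.85 and 10.6 FPKM with siNC (2.64 ± 0.11). ACAT2, which supplies acetoacetyl-CoA, was at 62.1 ± 3.003 and 10.7 ± 0.691 FPKM (2.43 ± 0.06), and DHCR7, which makes cholesterol from its last precursor, at 79.8 ± 4.92 and 14.04 ± 0.502 FPKM (2.42 ± 0.06). FDFT1, the squalene synthase, was at 126 ± 7.63 and 29.9 ± 0.982 FPKM (2.03 ± 0.06). The squalene epoxidase SQLE differed by 1.71. The smallest difference was that of PMVK, a kinase of the mevalonate branch, at 79.2 ± 7.30 and 64.2 ± 3.52 FPKM (0.30 ± 0.08, adjusted p = 0.0149). PMVK did not pass under 3 of 15 alternatives (adjusted p up to 0.0579), among them those without siNC 1 or siNC 3.

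Sterol sensors and carriers differed member by member. INSIG1, which retains SREBP in the endoplasmic reticulum and is itself induced by it, was at 92.8, 81.5 and 89.3 FPKM with EGF and 11.7, 11.6 and 11.1 FPKM with siNC (2.83 ± 0.06, adjusted p = 5.13e-07). The sterol carrier STARD4 was at 9.46, 5.81 and 8.44 FPKM with EGF and 1.96, 1.98 and 2.22 FPKM with siNC (1.52 ± 0.15). The transcription factors SREBF2 and SREBF1 were higher by 1.10 and 0.76. Of 14 tested genes 8 were higher and 3 lower, and the lower ones were ABCA1, which exports cholesterol (-0.67), SOAT1, which esterifies it (-0.63), and MYLIP, a ubiquitin ligase (-0.25). MYLIP did not pass under 4 of 15 alternatives (adjusted p up to 0.0704), among them those without siNC 1, siNC 2 or siNC 3. SCAP and NPC1 did not pass (0.02 and 0.03).

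Fatty acid genes were higher at the desaturases and at acetate activation. Of 18 tested members 12 were higher, ACACB was lower (-0.30) and 5 did not pass, with a median of 0.43. Among the 18, 2 genes reached the filter through 1 group alone. FADS2, the delta-6 desaturase, was at 43.8, 50.8 and 45.03 FPKM with EGF and 7.51, 7.90 and 7.89 FPKM with siNC (2.44 ± 0.06). ACSS2, which makes acetyl-CoA from acetate, was at 57.5 ± 3.69 and 12.1 ± 0.515 FPKM (2.15 ± 0.06), and SCD, the stearoyl-CoA desaturase, at 369 ± 14.9 and 92.1 ± 1.68 FPKM (1.99 ± 0.05). FASN, the fatty acid synthase, differed by 1.32 and the desaturase FADS1 by 0.95. ACLY, which makes acetyl-CoA from citrate, differed by only 0.31 and ACACA, the committing carboxylase, by 0.27. ACLY was above control in both groups, at 77.96 and 62.8 FPKM against 36.5 FPKM. MLXIPL, a glucose-responsive transcription factor, was at 1.27 and 1.40 FPKM, both far below control at 11.8 FPKM, and did not pass (-0.08).

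Genes of lipid storage and oxidation went both ways, with 9 of 20 tested members higher and 9 lower. Of these 20, 2 reached the filter through 1 group alone, FABP4 among them. Beside FABP4, the related carrier FABP5 was lower with EGF, at 15.7, 12.6 and 17.4 against 30.3, 31.5 and 36.4 FPKM (-1.06 ± 0.12). CPT1A, which admits fatty acids to mitochondria, was at 6.55 ± 0.139 and 14.1 ± 0.468 FPKM (-0.999), and PLIN2, a coat protein of lipid droplets, at 39.96 ± 1.74 and 75.8 ± 2.76 FPKM (-0.91). PPARG, the nuclear receptor known to induce FABP4 in fat cells, was at 3.78, 3.56 and 3.89 FPKM with EGF and 6.25, 6.21 and 6.05 FPKM with siNC (-0.60 ± 0.05, adjusted p = 1.08e-04). DGAT2, which makes triglyceride, and PLIN3, another droplet coat protein, were higher by 0.69 and 0.66. FABP6, a bile acid carrier, was at 2.45 against 0.578 FPKM (1.13).

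**Figure D3:**
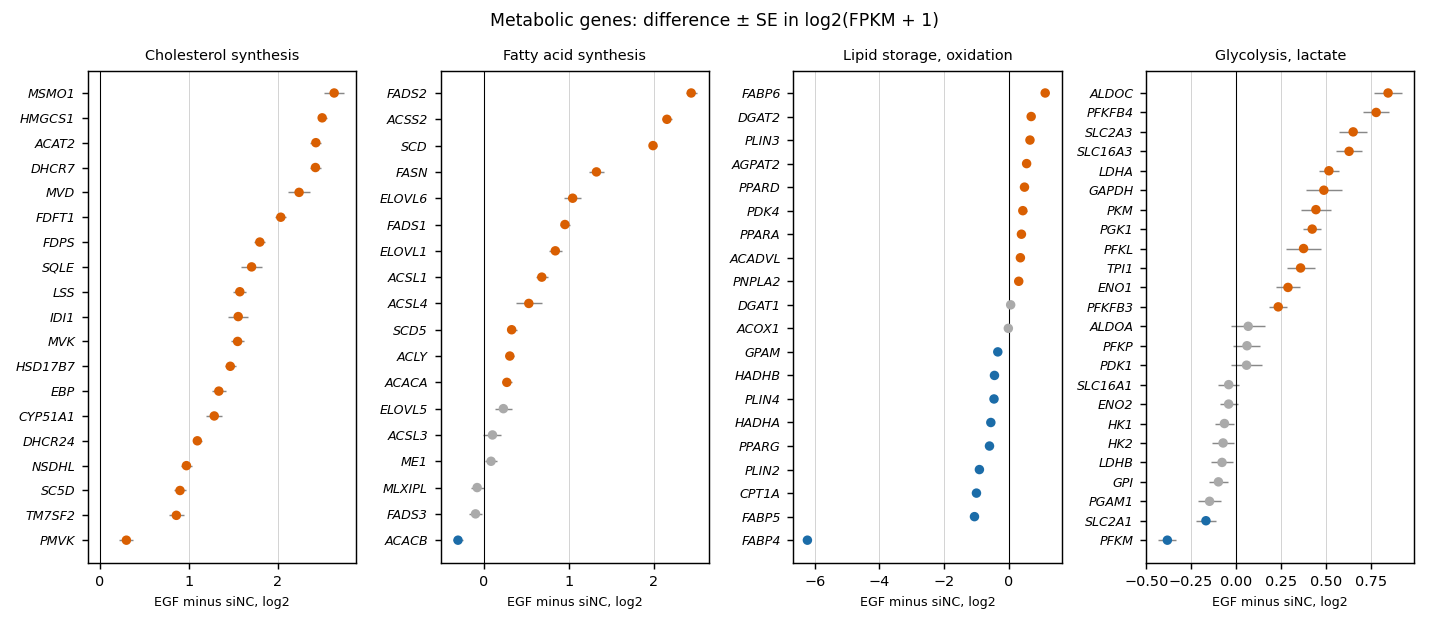
Difference EGF minus siNC in log2(FPKM + 1), ± SE from limma, for the tested genes of 4 metabolic lists (all but 1 of the cholesterol list), with orange for higher, blue for lower and grey for genes that did not pass. The horizontal scales differ between panels. Cholesterol synthesis lies wholly to the right of 0, FABP4 is far to the left, and glycolysis lies between -0.38 and 0.85.

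Most glycolysis genes were above control in both groups, and more of them were higher than lower with EGF against siNC. Of 24 genes 12 were higher with EGF, 2 were lower and 10 did not pass, where 23.0% of all tested loci were higher and 34.5% lower. The median was 0.15, against -0.08 over all tested loci. Against control 23 were higher with EGF (24.7% of all tested loci) and 21 with siNC (37.9%), with medians of 0.85 and 0.60. LDHA, which makes lactate, was at 526, 519 and 556 FPKM with EGF, 376, 366 and 376 FPKM with siNC and 198, 178 and 195 FPKM in control (0.52 ± 0.05, adjusted p = 2.15e-04). PGK1, phosphoglycerate kinase, was at 312 ± 9.26 and 232 ± 1.21 FPKM against 103 ± 4.14 FPKM in control (0.42 ± 0.05). The largest differences were those of the aldolase ALDOC (0.85), the regulator PFKFB4 (0.78), the glucose transporter SLC2A3 (0.65) and the lactate exporter SLC16A3 (0.63). The entry steps SLC2A1, HK1 and HK2 differed by -0.17, -0.06 and -0.07, of which the first passed as lower. SLC2A1 did not pass under 9 of 15 alternatives (adjusted p up to 0.470), among them those without EGF 1, EGF 3, siNC 1, siNC 2 or siNC 3. Its difference was -0.07 under median-ratio scaling. PFKM, the muscle-type phosphofructokinase, was also lower (-0.38).

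In the pentose phosphate pathway the oxidative steps and the steps that convert ribulose phosphate differed in sign. PGD and PGLS of the oxidative branch, which yields NADPH, were higher by 0.82 and 0.66. So were TKT (0.50) and TALDO1 (0.44). RPIA and RPE, the isomerase and the epimerase of ribulose phosphate, were lower, at -0.34 and -0.41. Of 18 HIF1 targets outside glycolysis 14 were higher and 2 lower with EGF, with a median of 0.60. CA9, a membrane carbonic anhydrase, was at 23.8, 25.99 and 24.3 FPKM with EGF, 4.11, 4.23 and 4.12 FPKM with siNC and 3.57, 4.55 and 4.70 FPKM in control (2.32 ± 0.05). NDRG1, a stress-responsive gene, was at 77.4 ± 6.23 and 25.5 ± 0.176 FPKM (1.56 ± 0.06), and ADM, a vasodilator peptide, at 19.4 ± 0.963 and 6.56 ± 0.325 FPKM (1.43 ± 0.06). ANGPTL4, an inhibitor of lipoprotein lipase, was high in both, at 25.1 and 14.6 FPKM against 2.99 FPKM in control (0.74). CA12 and EGLN1 were lower, at -0.28 and -0.22. EGLN1 did not pass under 5 of 14 alternatives (adjusted p up to 0.0990), among them those without EGF 3, siNC 1 or siNC 3.

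Early response genes differed member by member. Of 19 tested immediate early genes 11 were higher with EGF, 3 were lower and 5 did not pass, with a median of 0.24, and 5 further genes of the list did not reach the filter. Without siNC 1 the number higher was 7. EGR1 (ENSG00000120738), a zinc finger factor induced within the first wave after receptor activation, was at 16.4, 19.2 and 16.3 FPKM with EGF and 4.32, 4.79 and 4.40 FPKM with siNC (1.73 ± 0.08, adjusted p = 5.26e-06). Control was at 12.4, 14.9 and 13.8 FPKM, between the groups but overlapping neither. EGR3, a relative, was at 1.48, 1.37 and 1.70 FPKM with EGF and 0.110, 0.0895 and 0.0968 FPKM with siNC (1.19 ± 0.07). EGR3 reached the filter through the EGF libraries alone, so that it had to differ. JUNB and FOS, subunits of AP-1, were higher by 0.88 and 0.68, IER2 by 0.66 and ZFP36, which destabilises cytokine messages, by 0.61.

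Other early genes differed little or were lower with EGF. MYC, at 74.7 ± 3.32 and 66.9 ± 1.63 FPKM, was higher by only 0.16 (adjusted p = 0.0358). MYC did not pass under 6 of 15 alternatives (adjusted p up to 0.135), among them those without EGF 3, siNC 1, siNC 2 or siNC 3. ATF3, IER5, KLF2, KLF4 and NR4A2 did not pass, with differences from -0.17 to 0.11, though NR4A2 passed without EGF 2 (adjusted p of 0.0317) and IER5 after rescaling to TPM (-0.16). KLF10, a factor induced by TGF-beta, was lower at 10.1 ± 0.534 against 15.3 ± 0.240 FPKM (-0.56 ± 0.05), and HES1 and JUN were lower, at -0.31 and -0.26. The AP-1 subunits thus differed in sign, with FOSL1, an AP-1 subunit of the ERK output list, at 27.7, 31.5 and 31.2 FPKM with EGF and 61.6, 60.1 and 57.2 FPKM with siNC (-0.96 ± 0.06).

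ERK feedback and output genes were above control in most cases in both groups, and differed in both directions when EGF was set against siNC. Of 18 tested members 9 were higher, 7 lower and 2 did not pass. Against control 17 were higher with EGF (24.7% of all tested loci) and 13 with siNC (37.9%). The phosphatases of ERK were higher with EGF, DUSP5 at 36.6, 43.9 and 37.3 against 14.1, 14.5 and 13.96 FPKM (1.40 ± 0.07), DUSP6 at 13.96, 12.9 and 13.5 against 8.51, 8.99 and 9.61 FPKM (0.53 ± 0.06), and DUSP4 and DUSP7 by 0.58 and 0.34. The Sprouty inhibitors SPRY4, SPRY2 and SPRY1 were also higher, by 0.98, 0.65 and 0.33, and IER3 by 1.18. The lower members were FOSL1, the ETS factors ETV4 (-0.65) and ETV5 (-0.34), the inhibitor SPRED2 (-0.46), the urokinase receptor PLAUR (-0.47), the receptor EPHA4 (-0.27) and CCND1. EPHA4 did not pass under 6 of 14 alternatives (adjusted p up to 0.0938), among them those without EGF 3, siNC 1, siNC 2 or siNC 3. DUSP6 was at 2.25, 2.09 and 2.14 FPKM in control, below every library of both groups.

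The receptors and ligands of the EGFR family differed in both directions. EGFR itself (ENSG00000146648) was lower with EGF, at 30.2, 22.1 and 23.9 FPKM against 49.4, 49.4 and 49.8 FPKM with siNC (-0.95 ± 0.11, adjusted p = 3.15e-04), and control was at 28.01, 22.3 and 22.8 FPKM, overlapping EGF. ERBB2, its partner receptor, was lower, at -0.46. Among the ligands, TGFA was at 2.56, 2.21 and 2.49 FPKM with EGF and 8.35, 8.19 and 8.61 FPKM with siNC (-1.46 ± 0.06), while AREG was at 23.2, 22.00 and 24.05 and 13.5, 13.1 and 13.3 FPKM (0.75 ± 0.05). NRG1, a ligand of ERBB3 and ERBB4, was higher at 4.81 ± 0.406 against 1.64 ± 0.0644 FPKM (1.14). EREG and BTC were lower, at -0.47 and -0.32, and HBEGF did not pass (-0.11). BTC did not pass under 8 of 14 alternatives (adjusted p up to 0.128), among them those without EGF 2, EGF 3, siNC 2 or siNC 3. The restrainers of the receptor, LRIG1 and ERRFI1, were higher by 1.01 and 0.54. In all 4 of 10 tested members were higher and 5 lower.

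Several lineage genes of the lung were lower with EGF, and others did not differ beyond the test. The thyroid transcription factor NKX2-1 (ENSG00000136352), which specifies lung epithelium, was at 2.89, 2.62 and 2.87 FPKM with EGF, 15.5, 13.7 and 15.7 FPKM with siNC and 4.58, 4.42 and 4.58 FPKM in control (-2.07 ± 0.07, adjusted p = 1.82e-06). SFTPA1, one of the surfactant proteins made by type II pneumocytes, was at 0.0498, 0.0172 and 0.0260 FPKM with EGF, from 6 reads in all, and at 6.23, 5.84 and 5.43 FPKM with siNC, from 1054 reads. It was at 0, 0.107 and 0.0227 FPKM in control and 0.240, 0.143 and 0.156 FPKM in siEGFR, so the high level was confined to siNC among these 4 groups. SFTPA1 has a near-identical relative, SFTPA2, which makes its reads uncertain. LPCAT1, which makes surfactant phospholipid, was at 43.2, 42.2 and 42.3 FPKM with EGF and 143, 145 and 146 FPKM with siNC (-1.74 ± 0.04), with control at 38.4 FPKM.

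Of 10 tested alveolar and airway genes SFTPA1, LAMP3, NAPSA and SLC34A2 reached the filter through the siNC libraries alone, so that these 4 had to differ and their direction was fixed. Of the other 6, 3 were lower (NKX2-1, LPCAT1 and SFTPB), and FOXA2, AGER and ABCA3 did not pass. LAMP3 was at 0.109 against 2.51 FPKM, NAPSA, an aspartic protease that processes surfactant protein B, at 0.392 against 1.63 FPKM, and SFTPB at 0.957 against 3.40 FPKM. Of the 10 genes that did not reach the filter, the secretoglobins SCGB1A1, SCGB3A1 and SCGB3A2 of airway club cells were at 0 in all 6 libraries, and SFTPC, the most specific surfactant protein of type II cells, was at no more than 0.212 FPKM.

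Genes of epithelial identity (keratins, junction and adhesion genes, epithelial splicing factors) were mostly lower with EGF, with 13 of 18 tested members lower and 3 higher against background shares of 34.5% and 23.0%. EPCAM, an epithelial adhesion molecule, was at 5.14, 4.45 and 5.32 FPKM with EGF, 35.1, 34.2 and 36.3 FPKM with siNC and 7.12, 5.93 and 6.69 FPKM in control (-2.60 ± 0.07, adjusted p = 7.62e-07). CDH1, which encodes E-cadherin, was at 2.32, 1.98 and 2.10 FPKM with EGF, 15.8, 16.3 and 16.9 FPKM with siNC and 6.36, 5.56 and 5.14 FPKM in control (-2.47 ± 0.06), so that control lay between them without overlap. KRT7, a keratin of simple epithelia, was at 52.2, 63.7 and 59.5 and 292, 316 and 301 FPKM (-2.36 ± 0.08), with control at 44.2, 68.9 and 56.04 FPKM overlapping EGF. The splicing factors ESRP2 and ESRP1 were lower, at -1.50 and -0.88, as was the tight junction gene CLDN3, at -1.48. ESRP1 reached the filter through the siNC libraries alone, so that it had to differ and its direction was fixed. In the other direction, the membrane protease ST14 was at 9.78 against 3.31 FPKM (1.32), and KRT19 and ELF3 were higher by 0.63 and 0.30. KRT18 was lower, at -0.23. It did not pass under 6 of 15 alternatives (adjusted p up to 0.276), among them those without EGF 3, siNC 1, siNC 2 or siNC 3.

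Mesenchymal genes showed no single direction, with 5 of 10 tested members higher and 4 lower. FN1, fibronectin, was at 312 ± 29.7 against 151 ± 5.39 FPKM (1.04 ± 0.08), and SPARC and ITGA5 were higher by 0.65 and 0.63. VIM, vimentin, was at 192 ± 11.3 and 148 ± 2.55 FPKM (0.37). SNAI2, a repressor of E-cadherin, was lower, at 2.21, 2.18 and 2.23 against 5.22, 4.91 and 5.31 FPKM (-0.94 ± 0.05), and ZEB1, another such repressor, did not pass (0.20), but did without EGF 2 (adjusted p of 0.00940) and under median-ratio scaling (0.28). TGFBI, known as a TGF-beta target, was lower, at -0.94.

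**Figure D4:**
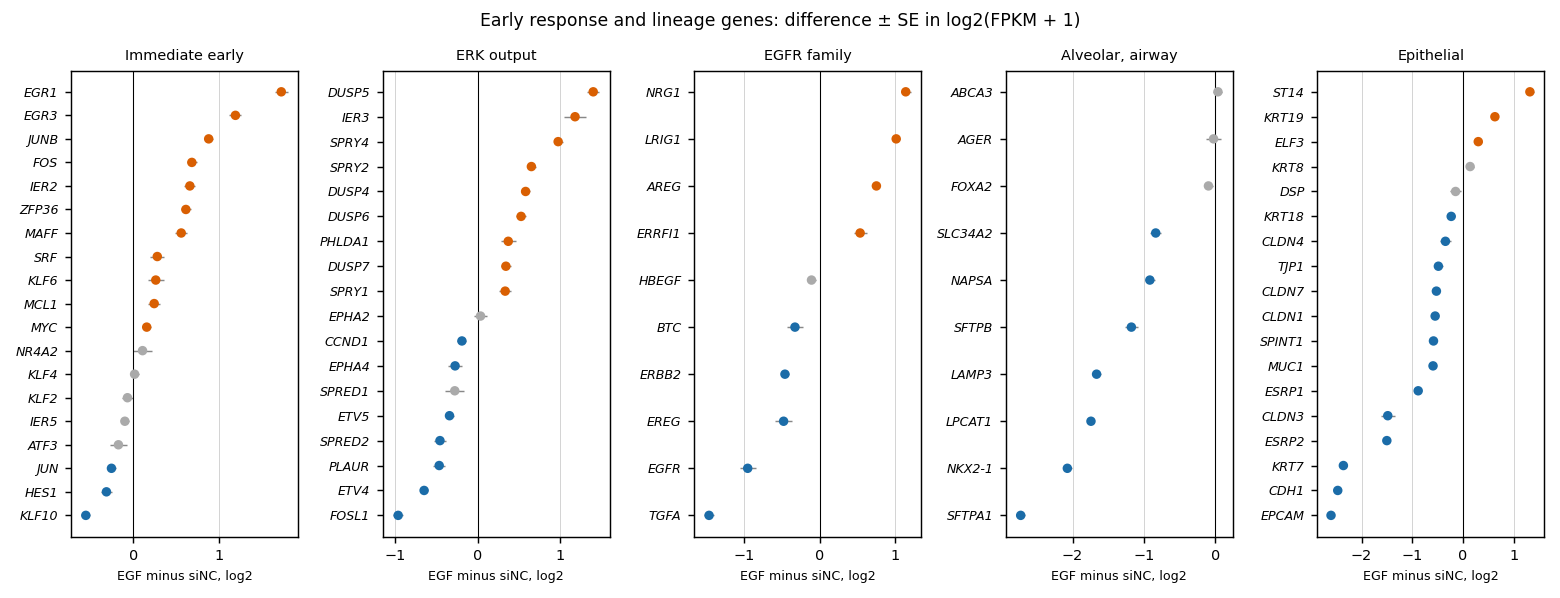
Difference EGF minus siNC in log2(FPKM + 1), ± SE from limma, for each tested gene of 5 lists of early response, EGFR family and lineage genes, with orange for higher, blue for lower and grey for genes that did not pass. The horizontal scales differ between panels. EGR1 and DUSP5 lie farthest right in their lists, TGFA and EGFR farthest left in theirs, and 13 of 18 epithelial genes lie to the left as lower.

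Squamous, neuroendocrine and mucous markers were mostly absent. Of 24 squamous-type genes 9 reached the filter, of which 4 were higher and 3 lower. KRT17 was at 2.12 against 5.74 FPKM (-1.11), and the cornified envelope genes SPRR2D and IVL, which passed the filter through siNC alone, were at 0.0101 against 2.53 and 0.0115 against 1.44 FPKM. S100A9, a calcium-binding protein of inflamed epithelium, was higher, at 43.5, 45.7 and 47.4 against 28.6, 25.2 and 26.1 FPKM (0.75). SERPINB2, SERPINB3 and SERPINB4 were above control in both groups, at 13.7, 6.09 and 10.6 FPKM with EGF and 14.4, 4.52 and 10.1 FPKM with siNC, and the last and the first did not pass. SERPINB3 did not pass under 6 of 15 alternatives (adjusted p up to 0.0979), among them those without EGF 1, EGF 3, siNC 2 or siNC 3. SERPINB3 and SERPINB4 are near-identical, and the split of reads between them is uncertain.

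Of 16 neuroendocrine genes 4 reached the filter, and VGF was the member that was lower. SCG2, another granule protein, went the other way, at 44.1, 29.7 and 38.3 FPKM with EGF and 8.10, 7.26 and 8.26 FPKM with siNC (2.10 ± 0.13), with control at 42.4, 25.4 and 33.1 FPKM. The lineage factor INSM1 was at 0 in all 6 libraries and CHGA was at no more than 0.0284 FPKM. Of 13 mucous and intestinal genes 4 reached the filter, with SPINK4 higher (2.17 against 0.602 FPKM) and TFF2 and AGR2 lower (-1.27 and -0.73). 3 of these 4 passed the filter through 1 group alone.

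Antigen presentation genes were higher with EGF than with siNC. All but TAP2 (0.03) of the 15 genes of MHC class I presentation were higher, with a median of 1.01. HLA-B was at 332, 380.1 and 340.5 FPKM with EGF, 55.01, 55.8 and 51.4 FPKM with siNC and 390.0, 486 and 457 FPKM in control (2.67 ± 0.07, adjusted p = 7.62e-07), and siEGFR was at 64.6, 67.02 and 64.96 FPKM. HLA-C was higher by 2.08, B2M, the shared light chain, by 0.84, the peptide transporter TAP1 by 1.02 and the immunoproteasome subunit PSMB9 by 1.15. Against control 11 of the 15 were lower with EGF (24.8% of all tested loci) and 14 with siNC (28.9% of all tested loci), with medians of -0.39 and -1.34, so siNC stood farther below. HLA genes share sequence, and the split of their reads is uncertain.

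Of the MHC class II genes HLA-DRA, the alpha chain of HLA-DR, was at 25.4, 25.95 and 26.2 FPKM with EGF, 1.78, 1.65 and 1.59 FPKM with siNC and 39.7, 40.5 and 39.01 FPKM in control, which was the largest increase of all tested loci (3.33 ± 0.05, adjusted p = 1.22e-07). CD74, the chaperone of class II molecules, was at 42.1, 43.9 and 40.9 and 6.21, 6.44 and 5.36 FPKM (2.63 ± 0.07). CD14, a coreceptor of bacterial lipopolysaccharide, was at 35.5, 38.5 and 35.5 FPKM with EGF and 6.67, 7.198 and 7.11 FPKM with siNC (2.23 ± 0.05), while PTPRC stayed near 0 in both groups.

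Of 25 tested interferon-stimulated genes, a known response to foreign RNA, 8 were higher and 8 lower with EGF. Among the 25, 2 genes reached the filter through 1 group alone. Of all tested loci 23.0% were higher and 34.5% lower. IFI27, a mitochondrial protein of that response, was at 7.10, 8.55 and 7.06 FPKM with EGF and 25.5, 26.04 and 23.7 FPKM with siNC (-1.61 ± 0.08), OAS1, a sensor of double-stranded RNA, at 1.48 ± 0.103 and 4.72 ± 0.182 FPKM (-1.21 ± 0.06), and IFI44L and IFI6 were lower, at -0.84 and -0.75. XAF1, BST2 and IFI35 were higher by 1.09, 0.94 and 0.66. IFIT1 and IFIT3 did not pass (0.12 and -0.11), though IFIT1 did without EGF 2 (adjusted p of 0.00378) and under median-ratio scaling (0.22). The chemokine CXCL10 was at 0.0235 and 0.0508 FPKM.

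Of 17 tested NF-kB genes 12 were higher and 2 lower with EGF, with a median of 0.64. Among the 17, 1 gene reached the filter through 1 group alone. ICAM1, a leukocyte adhesion molecule, was at 55.3, 58.1 and 52.8 against 21.1, 22.6 and 21.7 FPKM (1.31 ± 0.05). The chemokines CXCL8 and CCL2 were higher by 1.06 and 1.05, and the feedback inhibitor NFKBIA by 0.59. CXCL2 and TNFAIP2 were lower, at -0.65 and -0.33.

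Genes of the BMP response were lower with EGF. Of 13 ID, BMP and TGF-beta feedback genes 11 were lower and BMP4 and TGFB1 were higher (1.07 and 0.72). Among the 13, 1 gene reached the filter through 1 group alone. ID3, an inhibitor of basic helix-loop-helix factors, was at 11.3, 12.03 and 10.99 FPKM with EGF, 95.7, 97.6 and 96.5 FPKM with siNC and 27.8, 32.6 and 33.1 FPKM in control (-2.97 ± 0.05, adjusted p = 1.57e-07), so that EGF lay below control and siNC above it. ID2 and ID1 were at 4.51 and 36.5 FPKM with EGF and 18.7 and 130.2 FPKM with siNC. The inhibitory SMAD6 and SMAD7 were lower, at -1.19 and -0.71, and PMEPA1 and SKIL, which dampen TGF-beta signals, at -1.38 and -1.17.

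Targets of YAP and TEAD and genes of the actin cytoskeleton were mostly lower with EGF than with siNC. Of 19 YAP and TEAD targets 11 were lower and 3 higher, with a median of -0.59. Against control 5 of the 19 were higher and 8 lower with EGF, and 13 higher and 3 lower with siNC. The shares of all tested loci against control were 24.7% higher and 24.8% lower with EGF, and 37.9% and 28.9% with siNC. ANKRD1 was at 0.614, 0.708 and 0.677 FPKM with EGF, 11.3, 10.9 and 11.4 FPKM with siNC and 4.42, 3.64 and 3.41 FPKM in control (-2.87 ± 0.05). It reached the filter through the siNC libraries alone. AXL, a receptor kinase, was at 4.91 ± 0.164 against 17.2 ± 0.157 FPKM (-1.63 ± 0.05), and TGFB2 and CCN1 were lower, at -1.33 and -1.10. CCN2, the partner of CCN1 as a standard YAP target, was higher by 0.40, and so were FSTL1 (0.77) and AMOTL1 (0.23). AMOTL1 did not pass under 4 of 15 alternatives (adjusted p up to 0.0725), among them those without siNC 1 or siNC 2. Of 17 tested actin and contractile genes 12 were lower and 0 higher, while 23.0% of all tested loci were higher. Against control 6 of the 17 were higher and 3 lower with EGF, and 14 higher and 1 lower with siNC. Among the 17, 1 gene reached the filter through 1 group alone. ACTA2, smooth muscle actin, was at 0.766, 1.26 and 0.985 FPKM with EGF and 7.96, 9.72 and 8.47 FPKM with siNC (-2.28 ± 0.11), MYL9, a myosin light chain, was lower, at -1.28 and CNN2, a calponin, at -1.03. Actin genes share sequence, which makes the split of reads between ACTA2 and ACTG2 uncertain.

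Proteases of the matrix diverged within the plasminogen system. PLAT, tissue plasminogen activator, was at 27.7, 29.1 and 26.8 FPKM with EGF and 4.49, 4.48 and 4.07 FPKM with siNC (2.43 ± 0.06), while PLAU, the urokinase, was at 35.3, 37.03 and 36.1 and 140.5, 149 and 145 FPKM (-1.98 ± 0.05). The receptor PLAUR was lower together with PLAU. MMP1, a collagenase, was at 10.6, 10.2 and 11.1 FPKM with EGF, 2.80, 2.21 and 2.63 FPKM with siNC and 1.13, 0.999 and 1.24 FPKM in control (1.72 ± 0.08), and the membrane protease MMP14 and the inhibitor TIMP1 were higher by 1.75 and 1.23. TFPI2, a protease inhibitor, was lower, at -1.20. Of 13 tested members 7 were higher and 5 lower.

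Ribosome biogenesis genes were lower with EGF, and ribosomal protein genes differed little. Of 24 tested ribosome biogenesis genes 17 were lower with EGF and POLR1C was higher, with a median of -0.36. RRS1 was at 18.7, 22.3 and 20.7 against 72.7, 72.9 and 67.3 FPKM (-1.74 ± 0.07), NOLC1, a nucleolar scaffold, was lower, at -0.75 and DKC1, the pseudouridine synthase, at -0.71. Against control 23 of the 24 were higher with EGF (24.7% of all tested loci) and 22 with siNC (37.9%). Of 28 ribosomal protein genes 5 were higher, 3 lower and 20 did not pass, with RPS18 at 0.49. Under median-ratio scaling 10 of these 28 were higher. Without EGF 1 it was 11, and without EGF 3, siNC 1 or siNC 3 it was 3.

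Stress and nutrient lists were mixed, where 23.0% of all tested loci were higher with EGF and 34.5% lower. Against control, 16 of 20 tested ATF4 targets were higher with EGF (24.7% of all tested loci) and 16 with siNC (37.9%). The medians of these ATF4 targets against control were 0.36 and 0.58. With EGF against siNC, 10 of these 20 were lower and 3 higher. The amino acid transporter SLC7A5 was at 44.1 ± 4.004 against 99.9 ± 2.14 FPKM (-1.16 ± 0.07). The serine synthesis enzymes PSPH and PSAT1 were at -1.01 and -0.65, and TRIB3 at 0.70. Of 18 tested FOXO targets 11 were higher and 2 lower, with PIK3IP1, which restrains PI3 kinase, higher by 1.27 and TRIB2 by 1.25, and SESN3 and the ubiquitin ligase FBXO32 at -1.78 and -0.90. SESN3 reached the filter through the siNC libraries alone, so that it had to differ and its direction was fixed. PIK3IP1 was at 11.1 FPKM with EGF, 4.02 FPKM with siNC and 28.2 FPKM in control, so both groups lay below control. Of 17 tested p53 targets 9 were lower and 4 higher, with FAS at -0.94 and GDF15, a stress cytokine, at 22.3, 24.4 and 21.3 against 7.002, 6.83 and 6.51 FPKM (1.60 ± 0.06). Of 17 tested NRF2 targets 6 were higher and 6 lower. HMOX1, which degrades heme, was at 15.2, 15.6 and 16.8 against 57.9, 59.7 and 59.1 FPKM (-1.83 ± 0.05), and AKR1C3, a ketosteroid reductase, at 27.1 ± 1.73 against 6.30 ± 0.127 FPKM (1.94 ± 0.06). AKR1C genes are near-identical, which makes this split uncertain. In each of the p53 and NRF2 lists 1 tested gene reached the filter through 1 group alone.

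Of 25 tested lysosome and autophagy genes 13 were higher and 3 lower, with GABARAPL1 and WIPI1 of the autophagosome at 0.82 and 0.74, the sialidase NEU1 at 0.73 and the protease CTSL at -0.34. CTSL did not pass under median-ratio scaling (-0.24). Against control 13 of the 25 were lower and 3 higher with EGF, and 17 lower and 2 higher with siNC, with medians of -0.16 and -0.59. Lower loci against control made up 24.8% of those tested with EGF and 28.9% with siNC. Among the 25, 1 gene reached the filter through 1 group alone. For EGF against siNC, 23.0% of all tested loci were higher and 34.5% lower. Of 16 ER chaperones 5 were higher and 3 lower, and 3 were higher without EGF 3 or without any 1 siNC library, with HERPUD1 at 0.61 and HSPA5, which encodes BiP, at 0.17, which did not pass without EGF 3, siNC 1, siNC 2 or siNC 3 (adjusted p up to 0.0733). Of 7 tested metallothionein and zinc genes 2 were higher and 3 lower, with MT1E at 29.5 against 122 FPKM (-2.01), whose near-identical relatives leave its reads uncertain, and the zinc exporter SLC30A1 at -0.81.

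Mitochondrial genes showed differences of either sign, from -0.87 to 0.81. Calls in either direction made up 57.5% of all tested loci. Of 23 tested nuclear respiratory chain genes 2 were higher and 7 lower, with ATP5F1B of the ATP synthase at -0.69. Of 18 TCA cycle genes 5 were higher and 7 lower, with the citrate synthase CS at -0.85 and the pyruvate carboxylase PC at 0.81. Of 13 mitochondrially encoded transcripts 4 were higher and 3 lower, from -0.87 for MT-ND1 to 0.69 for MT-CO3. Of 4 tested nuclear noncoding RNAs MALAT1 and NEAT1 were higher (0.68 and 0.29, the latter not in the fit of all 15 libraries) and the snoRNA hosts GAS5 and SNHG1 lower (-0.91 and -0.68). MALAT1 was at 61.3, 45.5 and 55.99 FPKM with EGF and 32.7, 31.2 and 35.97 FPKM with siNC, so EGF 2 lay closest to siNC. The fibroblast marker COL1A2 was at 208, 189.9 and 187 FPKM with EGF and 129, 135 and 128 FPKM with siNC (0.57), COL1A1 was lower (-0.98) and PDGFRB higher (0.41).

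The siEGFR libraries allow the same genes to be read against the other siRNA group, in a comparison that shares the EGF libraries. HMGCS1, MSMO1, INSIG1 and FADS2 were higher with EGF than with siEGFR by 3.17, 2.70, 3.01 and 2.63. RRM2 and CDK1 differed by -1.39 and -1.10 from siEGFR, and -1.31 and -1.05 from siNC. EPCAM, CDH1 and NKX2-1 were lower than in siEGFR, at -1.82, -1.85 and -1.76. SFTPA1 was the exception among the genes with the largest decreases, at -0.19 from siEGFR and -2.73 from siNC.

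Some genes of the receptor pathway were at other levels in siEGFR than in siNC, a difference that was not tested here. DUSP6 was at 3.98, 4.05 and 4.18 FPKM in siEGFR, below all siNC libraries, and EGF stood above siEGFR by 1.51. AREG was at 5.81, 5.40 and 4.78 FPKM in siEGFR, and EGF stood above it by 1.93. TGFA was at 4.17, 4.11 and 3.71 FPKM in siEGFR, between EGF and siNC without overlap, and differed from EGF by -0.55. EGFR, the target of that siRNA, was at 29.9, 28.6 and 28.9 FPKM, within the range of the EGF libraries, and the difference EGF minus siEGFR of -0.20 did not pass (adjusted p = 0.157 in limma). HMOX1 was at 94.2, 89.96 and 92.7 FPKM in siEGFR, above all siNC libraries.

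**Figure D5:**
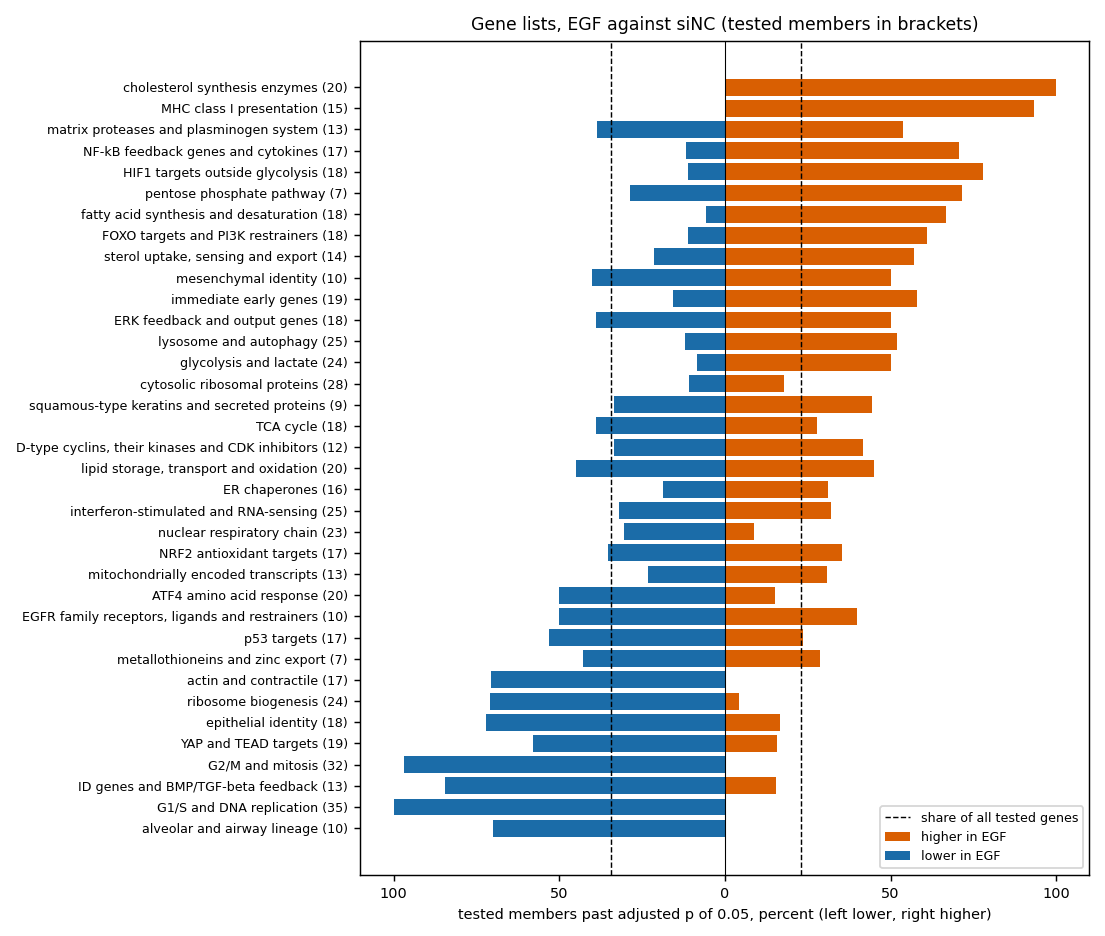
Share of tested members of each gene list with 5 or more tested members that were higher (right, orange) or lower (left, blue) with EGF than with siNC at adjusted p under 0.05, ordered by median difference, with dashed lines at the shares of all tested loci (23.0% higher, 34.5% lower). Cholesterol synthesis and MHC class I are at the top with 0 lower members, and G1/S and mitosis genes are near the bottom with 0 higher members. Members that reached the filter through 1 group alone are included.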

How the data were processed

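RNA was sequenced from 15 libraries of NCI-H1975 cells, 3 in each of 5 labelled groups, of which the 3 EGF and 3 siNC libraries were compared. The authors deposited FPKM values for 61248 loci, 643 of them added by the authors to the Ensembl annotation. Per the submitters' processing notes, the tools were DESeq2, featureCounts and HISAT2, and hg19 was the build. Versions, the annotation and the step that made the FPKM are not given in the sources used here. Positive values were whole multiples of 1 read (100% within 0.01 reads), which gave totals of 18009903 to 34908302 reads over the 15 libraries.

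Loci with FPKM of 1 or more in at least 3 of the 6 libraries were tested, 13361 in all, of which 763 reached this through 1 group only. limma 3.58.1 in R 4.3.3, with intensity trend and robust moderation, was run on log2(FPKM + 1) with no covariate, two-sided, with Benjamini-Hochberg adjustment over all tested loci and a threshold of 0.05. A fit of all 15 libraries gave the differences from control. On simulated data for this comparison (13361 genes, 200 changed) the fit recovered 68.7%, 86.6% and 97.0% of genes changed 1.5-, 2- and 4-fold. Of its 172 calls, 4 were unchanged genes. The simulation gave both groups the same spread per gene, where the median SD was 0.105 with EGF and 0.0571 with siNC. It also changed few genes, where 57.5% of loci were called in the data, so its rates do not carry over to them. No 2 libraries of a group held identical values, and they differed beyond sampling noise.

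Named genes were HMGCS1, EGR1, FABP4, VGF and EGFR, the 12 largest differences in each direction that reached a group mean of 5 FPKM without overlap, and the 4 members with the smallest p of each of 42 gene lists, with other members as examples or exceptions. The members and lists were chosen with earlier results of these data known. 1 list member had no locus, and 118 did not reach the filter. Promoter letters were searched in RefSeq windows. Alternatives were other pseudocounts, filters and scalings, all 15 libraries in the fit, no trend, a replicate block, limma-voom on the recovered reads, and leaving out each library. Some list members entered the counts and are not reported here by name. The almonertinib libraries entered only the 15-library fit.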

Additional observations from a re-analysis of the deposited data

How the results depend on the processing

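Across 15 alternatives the loci higher with EGF numbered 2528 to 3431 without 1 library and 2668 to 3824 under the other settings that kept all tested loci, and those lower 3688 to 4804 and 3685 to 5017. With a filter of 5 FPKM, which tests 7343 loci, 1984 were higher and 2716 lower. The same filter gave smaller list counts through fewer tested members: lipid storage 5 higher, immediate early 7 higher, alveolar 3 lower, neuroendocrine 1 higher, mucous 0 lower, interferon 3 higher, p53 3 lower, FOXO 7 higher, fibroblast 1 higher and endothelial 0 higher. With no filter, ribosomal proteins had 3 higher and endothelial markers 2. Median-ratio scaling gave 10 higher ribosomal proteins, and the fit of all 15 libraries 1 higher nuclear noncoding RNA, NEAT1 being lost; the cause was not tested. Without 1 library, immediate early genes had 7 to 12 higher, ER chaperones 3 to 6 and ribosomal proteins 3 to 11. Replicates with the same number in the labels did not all deviate together (correlations of -0.06, 0.23 and 0.26 over genes), and a fit with the replicate block gave 3267 higher and 4909 lower. Of 303 genes named or leading their lists 279 passed, of which 259 did so under every alternative that tested them, 20 were lost under at least 1 and 0 reversed. 6 of the 24 that did not pass did so under at least 1 alternative.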
